A study of Arabidopsis thaliana with 45 samples.

Results

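A set of 82 genes of Arabidopsis thaliana was high in wild-type shoots and low in all 3 lines in which FIE was replaced by a tagged or mutated copy or was silenced. The genes were chosen on their own RNA values. A nuclear gene entered where its mean level was at least 5 CPM (a gene's count scaled by the total of its library) in wild type and no more than 50% of that mean in each of the 3 other genotypes. Of 13801 nuclear genes that reached 5 CPM in wild type, 82 met the rule (0.594%). The same rule applied to each other genotype gave 3 genes for GFP-FIE, 19 for amiR-fie-es and 168 for SSTS/AAAA. Every difference from wild type was used by the rule, so those differences are given below as a description, without a test. The rule put a ceiling on each of the 3 lines but set no order among them. Histone marks over the genes were not used by it.

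RNA came from the aerial part of 2-week-old seedlings on solid medium, in 3 libraries per genotype. Ctrl is wild-type Col-0. GFP-FIE is a fie mutant complemented with wild-type FIE carrying a GFP tag. SSTS/AAAA is a fie mutant carrying tagged FIE in a phosphorylation-site mutant form. In amiR-fie-es an artificial microRNA against FIE was induced with oestradiol, written as 10 mM in the labels, from the start of growth. The amiR line was made with a vector named PLB21, and the fie lines were taken to homozygosity. The promoters of the tagged constructs, the number of independent transformants and any oestradiol given to the other genotypes are not given in the sources used here. Inducer and silencing can therefore not be told apart in amiR-fie-es. H3K27me3 ChIP was made from the same 4 genotypes at 2 weeks. It was also made from 7-day seedlings, those of Col-0 and tor-es in liquid medium. These were Col-0, tor-es (TOR depleted with oestradiol from the third day, again 10 mM as written), and Col-0 given DMSO, 10 µM AZD8055 or 10 µM Torin2 on the fourth day, compounds that inhibit the TOR kinase. H3K9me2 was profiled in 7-day Col-0 and tor-es. Separate plants or cultures behind the replicates are not stated, so each p-value measures only the spread between libraries.

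FIE is a WD40 subunit of Polycomb repressive complex 2, which trimethylates lysine 27 of histone H3 and keeps genes silent. Many of the 82 genes are known targets of abscisic acid (ABA), the hormone that rises when plants lose water. ABA bound by its receptors blocks clade A protein phosphatases, which frees SnRK2 kinases to activate bZIP factors and their targets. Those targets include late embryogenesis abundant (LEA) proteins and dehydrins, which protect cells as they dry, and the phosphatases themselves, which brake the signal. Other members belong to the fast response to touch, wounding and pathogens, or to the circadian clock.

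Library totals ran from 28866845 to 34543091 counts. FIE itself stood at 14.9 to 17.42 CPM in Ctrl, 21.9 to 25.5 in GFP-FIE, 9.44 to 9.79 in amiR-fie-es and 12.3 to 13.0 in SSTS/AAAA. Reads of a tagged FIE transgene count toward that gene. Mitochondrial genes held 0.0244% of the counts of SSTS/AAAA replicate 1, above the 0.0154% to 0.0182% of every other library. The 9 green shoot markers were abundant in every library, but their sums differed. They summed to 64849.8 to 65420.1 CPM in Ctrl, 68576.5 to 69000.6 in GFP-FIE, 54508.3 to 55289.9 in amiR-fie-es and 55382.6 to 56639.0 in SSTS/AAAA. Of the 9, 1 was below Ctrl in all 3 lines. All 7 pollen markers and 12 of 14 seed markers stayed under 1 CPM in every library. The 5 guard cell markers summed to 60.2 to 68.8 CPM in Ctrl, 53.8 to 55.2 in GFP-FIE, 43.7 to 44.4 in amiR-fie-es and 47.1 to 49.2 in SSTS/AAAA. The sum was lower in each line, but the markers differed: of 3 that reached 5 CPM in Ctrl, 2 were below Ctrl in all 3 lines. The 11 root markers summed to 76.8 to 78.8 CPM in Ctrl, 63.2 to 66.2 in GFP-FIE, 79.7 to 82.3 in amiR-fie-es and 64.8 to 69.02 in SSTS/AAAA. Of these, 9 stayed under 1 CPM in every library and only 2 reached 5 CPM in Ctrl, so the sums rest mainly on those 2. The part of any of these tissues or cell types in the results was not tested. The samples are bulk tissue, so fewer cells of a type and less RNA per cell cannot be told apart.

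The 82 members together took 2612 to 2880 CPM in the Ctrl libraries. They took 675 to 689 CPM in GFP-FIE, 548 to 553 in amiR-fie-es and 649 to 654 in SSTS/AAAA. Ctrl did not overlap the lines in any member: the lowest Ctrl library was at least 1.69 times the highest library of any line. The rule selects for this gap, and the share of all genes without overlap was not counted. Coding genes made up 80 of the 82, and the other 2, AT5G34790 and AT5G34800, were neighbouring pseudogenes and the only adjacent pair. The reference table held a symbol for 46 members and none for the other 36, whose roles are not given here. The members lay on chromosomes 1 to 5 in numbers of 23, 8, 21, 8 and 22. By list, members were 2 of 9 genes of ABA synthesis, breakdown and transport that reached 5 CPM in Ctrl, 2 of 6 drought and cold factors, 1 of 8 genes of galactinol, raffinose and proline synthesis, 1 of 10 lipid transfer and wax genes, 1 of 6 senescence genes and 2 of 5 heat genes. Mean Ctrl levels of the members ran from 5.11 to 247.8 CPM with a median of 16.1, and 25 members were under 10 CPM. Spread among the Ctrl libraries had a median coefficient of variation of 6.21% over members and 3.66% over all 13801 genes. The summed level was highest in Ctrl 1, and 53 members were highest there.

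**Figure D1:**
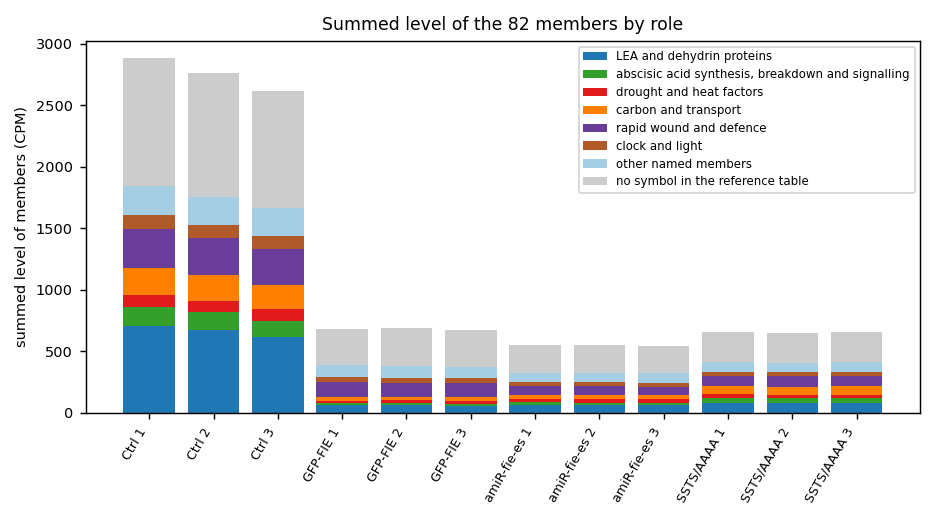
Summed level of the 82 members in CPM (y axis, from 0) in each of the 12 RNA libraries (x axis), stacked by the role of the members. The 3 Ctrl bars stand at 2612 to 2880 CPM and the 9 bars of the lines at 548 to 689 CPM, with the LEA and dehydrin block at 617 to 706 CPM in Ctrl and 58.0 to 84.5 CPM in the lines.

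The distance from Ctrl varied widely among members. The median member kept 26.8% of its Ctrl level in GFP-FIE, 19.4% in amiR-fie-es and 22.9% in SSTS/AAAA. In all 3 lines 14 members were at 10% of Ctrl or less, and 28 were at 25% or less. At the other end, 32 members kept 40% to 50% in their highest line. Just inside the ceiling lay NAC032, RTFL16 and AT5G47610, whose highest line stood at 0.492, 0.496 and 0.497 of Ctrl. Just outside lay BT1, AT1G79520 and ELIP1, at 0.510, 0.511 and 0.515. On the level threshold, AT5G63350 and CYP707A3 were just inside at 5.11 and 5.14 CPM, and MAPKKK13 and AT1G07985 just outside at 4.78 and 4.70 CPM.

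**Figure D2:**
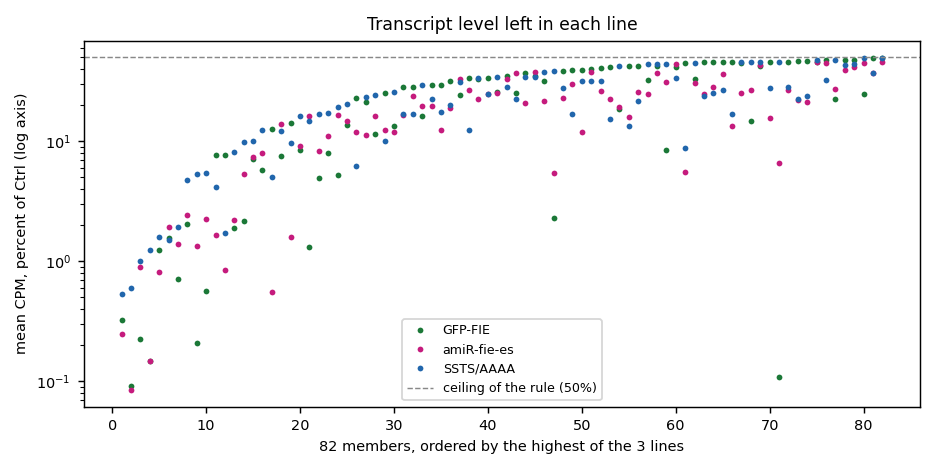
Mean CPM of each line as a percent of Ctrl (y axis, log scale) for the 82 members (x axis), ordered by the highest of the 3 lines, each point the mean of 3 libraries and the dashed line the 50% ceiling set by the rule. Values run from 0.0847% to 49.7%, and the spread between lines is widest for LTP4, at 0.108% in GFP-FIE and 46.04% in SSTS/AAAA.

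LEA proteins and dehydrins included the 2 members with the most transcript per kilobase in Ctrl, RAB18 and LEA7. Of 14 LEA, dehydrin and cold-regulated genes on a wider list that reached 5 CPM in Ctrl, 6 were members. RAB18 stood at 264, 250.2 and 229 CPM in the Ctrl libraries, 20.2, 20.5 and 18.7 CPM in GFP-FIE, 27.98, 27.4 and 26.9 CPM in amiR-fie-es and 43.3, 43.7 and 40.7 CPM in SSTS/AAAA. RAB18 is a dehydrin that is widely used as a reporter of ABA action, and per kilobase it was the most abundant member, at 280.4 CPM per kb in Ctrl. Transcript of LEA7 reached 161, 154 and 137 CPM in the Ctrl libraries, 0.265, 0.195 and 0.207 in GFP-FIE, 0.259, 0.2299 and 0.176 in amiR-fie-es and 2.203, 1.37 and 2.06 in SSTS/AAAA. For LTI65 the libraries gave 155, 145 and 135 CPM in Ctrl, against 0.332, 0.553 and 0.517 in GFP-FIE, 0.485, 0.328 and 0.264 in amiR-fie-es and 0.734, 0.6996 and 0.897 in SSTS/AAAA. Both genes are linked to survival of drying, and both were high in every Ctrl library and near the floor in every library of the lines. LTI65, also called RD29B, stood furthest from Ctrl of all members when each was measured against its highest line, with a Ctrl mean 186 times that of SSTS/AAAA.

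In Ctrl LEA4-5 measured 33.01, 31.9 and 29.7 CPM, in GFP-FIE 0.166, 0.2604 and 0.103, in amiR-fie-es 0.711, 0.788 and 0.645 and in SSTS/AAAA 1.703, 2.003 and 1.39. Levels of ERD10 were 68.7, 66.3 and 62.3 CPM in Ctrl, 28.98, 28.2 and 26.6 in GFP-FIE, 29.8, 27.5 and 27.8 in amiR-fie-es and 30.04, 30.4 and 30.2 in SSTS/AAAA. LEA4-5 was nearly absent from GFP-FIE, whereas the dehydrin ERD10 kept 42.5% to 45.96% of Ctrl in the 3 lines. LEA14 stood at 24.8, 26.9 and 23.5 CPM in the Ctrl libraries, 11.01, 11.4 and 11.8 CPM in GFP-FIE, 6.49, 5.81 and 6.36 CPM in amiR-fie-es and 5.26, 6.26 and 6.51 CPM in SSTS/AAAA. LEA14 was the member of this family with the most transcript left in GFP-FIE, at 45.4% of Ctrl. Related genes outside the set varied. ERD14, another dehydrin, stood at 146 CPM in Ctrl and 109, 126 and 156 CPM in GFP-FIE, amiR-fie-es and SSTS/AAAA. RD29A, a drought and cold gene, had 37.5 CPM in Ctrl and 19.3, 11.6 and 2.403 CPM in the same order, and GFP-FIE was above the ceiling. COR15A, a chloroplast cold protein, stood at 10.1 CPM in both Ctrl and GFP-FIE.

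The machinery that makes, breaks down and restrains ABA was represented by 7 members. Transcript of NCED3 reached 11.98, 12.6 and 11.9 CPM in the Ctrl libraries, 2.52, 2.21 and 3.04 in GFP-FIE, 1.32, 1.51 and 1.29 in amiR-fie-es and 2.58, 2.703 and 3.24 in SSTS/AAAA. NCED3 catalyses the step that limits ABA synthesis under drought, and its levels in the lines were 11.3% to 23.3% of Ctrl. For CYP707A3 the libraries gave 5.19, 5.300 and 4.93 CPM in Ctrl, against 1.72, 1.79 and 1.52 in GFP-FIE, 1.32, 1.35 and 1.11 in amiR-fie-es and 2.496, 2.19 and 2.06 in SSTS/AAAA. CYP707A3 breaks ABA down, so enzymes of both synthesis and breakdown were in the set. ABA1, ABA2, AAO3 and ABA3, which act in the other steps of synthesis, were not members, and ABA1 stood at 780 CPM in Ctrl and 572 to 698 CPM in the lines.

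In Ctrl HAI1 measured 59.1, 51.6 and 47.4 CPM, in GFP-FIE 2.52, 2.51 and 2.79, in amiR-fie-es 3.68, 4.27 and 5.28 and in SSTS/AAAA 9.13, 8.68 and 8.71. Levels of HAI2 were 8.04, 6.86 and 7.79 CPM in Ctrl, 0.0332, 0.2604 and 0.138 in GFP-FIE, 0.194, 0.164 and 0.146 in amiR-fie-es and 0.646, 0.541 and 0.666 in SSTS/AAAA. HAI1 and HAI2 are clade A phosphatases that are strongly induced by ABA and damp its signal. All 7 clade A phosphatase genes with at least 5 CPM in Ctrl were below Ctrl in all 3 lines, but only these 2 met the rule. PP2CA stood at 122 CPM in Ctrl and 70.6 to 83.8 CPM in the lines, and ABI1 at 63.6 CPM in Ctrl and 22.5 to 42.5 CPM in the lines. None of the 7 ABA receptor genes and none of the 6 SnRK2 and bZIP genes at that level was a member. The receptor genes PYL4 and PYR1 were higher in each line than in Ctrl, PYL4 at 58.3 CPM in Ctrl and 96.9, 139 and 143 CPM in GFP-FIE, amiR-fie-es and SSTS/AAAA. The bZIP gene ABF3 stood at 139.5 CPM in Ctrl and 38.5 to 79.3 CPM in the lines.

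AFP1 stood at 20.8, 19.9 and 17.3 CPM in the Ctrl libraries, 2.59, 2.995 and 2.97 CPM in GFP-FIE, 5.88, 4.86 and 4.87 CPM in amiR-fie-es and 8.899, 9.35 and 8.39 CPM in SSTS/AAAA. AFP1 binds the factor ABI5 and promotes its breakdown. Mean levels of PUB19 (± SD, n = 3) were 15.6 ± 1.63 CPM in Ctrl, 0.901 ± 0.332 in GFP-FIE, 1.24 ± 0.217 in amiR-fie-es and 1.95 ± 0.282 in SSTS/AAAA. PUB19, a U-box ubiquitin ligase, also restrains the response to drought. Transcript of AIRP2 reached 30.5, 31.2 and 27.2 CPM in the Ctrl libraries, 6.897, 6.48 and 6.52 in GFP-FIE, 8.34, 7.85 and 8.03 in amiR-fie-es and 15.3, 12.1 and 14.8 in SSTS/AAAA. AIRP2 is a RING ubiquitin ligase induced by ABA, and it was among the members with most transcript left in SSTS/AAAA, at 47.4% of Ctrl.

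Drought and heat factors contributed 6 members. For RD26 the libraries gave 36.3, 34.7 and 34.4 CPM in Ctrl, against 8.69, 9.57 and 8.24 in GFP-FIE, 12.2, 13.4 and 13.1 in amiR-fie-es and 8.399, 7.47 and 7.84 in SSTS/AAAA. RD26 is a NAC factor induced by ABA and drying, and NAC032 is a relative with 13.1 CPM in Ctrl and 3.22 to 6.45 CPM in the lines. In Ctrl STZ measured 7.02, 6.69 and 5.92 CPM, in GFP-FIE 1.69, 1.498 and 1.76, in amiR-fie-es 0.678, 0.887 and 0.879 and in SSTS/AAAA 0.764, 0.604 and 0.608. STZ, a zinc-finger repressor of the stress response also known as ZAT10, kept 25.2% of Ctrl in GFP-FIE and 10.1% in SSTS/AAAA. Levels of HSFA6A were 13.4, 12.7 and 11.9 CPM in Ctrl, 0.0995, 0.1302 and 0.241 in GFP-FIE, 0.0969, 0.0657 and 0.146 in amiR-fie-es and 0.147, 0.286 and 0.174 in SSTS/AAAA. HSFA6A is a heat shock factor known to respond to ABA, and it was close to the detection limit in all lines. HSFB2A, another heat shock factor, kept 34.5% to 37.6% of Ctrl in the lines, and the small heat shock protein gene HSP17.4 kept 24.3% to 33.05%. HSP70, outside the set, stood at 167 CPM in Ctrl and 55.95 to 108 CPM in the lines, and HSP101 at 10.6 CPM in Ctrl and 7.78 to 15.2 CPM.

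Genes of carbon metabolism and transport made up 8 members. SAG29 stood at 87.2, 85.4 and 76.8 CPM in the Ctrl libraries, 15.9, 15.1 and 15.2 CPM in GFP-FIE, 16.2, 16.3 and 15.3 CPM in amiR-fie-es and 35.1, 34.2 and 36.2 CPM in SSTS/AAAA. SAG29, also named SWEET15, is a sugar transporter of ageing and drought-stressed leaves. Transcript of GolS2 reached 11.98, 10.4 and 11.7 CPM in the Ctrl libraries, 1.49, 1.92 and 1.41 in GFP-FIE, 0.226, 0.197 and 0.117 in amiR-fie-es and 1.204, 1.08 and 0.984 in SSTS/AAAA. GolS2 makes galactinol, the donor for the raffinose sugars that build up in drying tissue, and amiR-fie-es was its lowest line. For SUS3 the libraries gave 28.8, 28.3 and 25.7 CPM in Ctrl, against 2.98, 3.29 and 3.17 in GFP-FIE, 4.23, 5.12 and 4.07 in amiR-fie-es and 6.37, 7.09 and 6.803 in SSTS/AAAA. SUS3 is a sucrose synthase, and its GFP-FIE libraries were the lowest. INT2, an inositol transporter, kept 5.26%, 16.6% and 19.2% of Ctrl in GFP-FIE, amiR-fie-es and SSTS/AAAA, and DIC2, a mitochondrial dicarboxylate carrier, kept 46.8%, 22.02% and 22.4%. NADP-ME1, a malic enzyme, stood at 8.18, 6.17 and 7.21 CPM in Ctrl and at no more than 0.199 CPM in any library of the lines.

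In Ctrl TSPO measured 16.6, 15.9 and 12.7 CPM, in GFP-FIE 0.0332, 0 and 0.06899, in amiR-fie-es 0.162, 0.0985 and 0.146 and in SSTS/AAAA 0.0294, 0.223 and 0.203. TSPO is a membrane protein made in response to ABA, and it held 3 counts over the GFP-FIE libraries together against 1318 in Ctrl, a ratio of 450.0 (95% counting interval 154 to 2185). AT5G50360 held 1 count in GFP-FIE against 463 in Ctrl, a ratio of 474 (95% counting interval 84.7 to 18770). Both intervals describe counting error only. They take no account of the choice of these genes by the rule on this same contrast, so they are no test of it. Levels of LTP4 were 41.7, 41.8 and 38.95 CPM in Ctrl, 0, 0.0977 and 0.0345 in GFP-FIE, 2.42, 2.23 and 3.34 in amiR-fie-es and 18.4, 18.6 and 19.3 in SSTS/AAAA. LTP4 encodes a lipid transfer protein, and its groups were ordered from Ctrl through SSTS/AAAA and amiR-fie-es to GFP-FIE with no overlap. Its near copy LTP3, at 55.3 CPM in Ctrl, had 0.824, 8.54 and 32.6 CPM in GFP-FIE, amiR-fie-es and SSTS/AAAA. Reads shared between the 2 copies would make their separate values uncertain.

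A further block was the fast response to touch, wounding and pathogens. A list of 15 such genes, drawn up after the members had been seen, had 12 genes with at least 5 CPM in Ctrl, and 7 of them were members. SZF1 stood at 94.8, 89.2 and 91.8 CPM in the Ctrl libraries, 45.5, 40.95 and 43.2 CPM in GFP-FIE, 19.1, 19.6 and 19.9 CPM in amiR-fie-es and 21.4, 22.9 and 21.8 CPM in SSTS/AAAA. SZF1, a zinc-finger protein of the salt and wound response, sat just under the ceiling in GFP-FIE and far below it in the other lines. Transcript of ACS6 reached 51.8, 52.4 and 47.2 CPM in the Ctrl libraries, 13.8, 13.5 and 15.2 in GFP-FIE, 7.62, 8.96 and 8.47 in amiR-fie-es and 8.75, 8.299 and 8.54 in SSTS/AAAA. For WRKY33 the libraries gave 24.1, 21.5 and 21.98 CPM in Ctrl, against 7.46, 6.84 and 7.04 in GFP-FIE, 4.94, 5.19 and 4.45 in amiR-fie-es and 8.61, 8.17 and 8.86 in SSTS/AAAA. ACS6 makes the precursor of ethylene, and WRKY33 drives the synthesis of antimicrobial compounds. Their lowest Ctrl library was 3.10 and 2.43 times the highest other library, a gap that the rule selects for.

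In Ctrl ORA47 measured 17.1, 15.4 and 15.3 CPM, in GFP-FIE 3.71, 3.52 and 3.79, in amiR-fie-es 2.003, 1.54 and 2.11 and in SSTS/AAAA 0.734, 1.11 and 1.13. ORA47 is an AP2/ERF factor that switches on jasmonate synthesis, and 0 of 11 jasmonate genes at that level were members. Levels of ERF104 were 16.4, 17.2 and 14.9 CPM in Ctrl, 2.75, 2.67 and 2.42 in GFP-FIE, 3.52, 2.17 and 3.81 in amiR-fie-es and 4.26, 5.501 and 4.52 in SSTS/AAAA. ERF104 is an ethylene response factor released by a pathogen-activated kinase, and GFP-FIE was its lowest line. MYB77, a factor that links stress and auxin, kept 39.6% to 47.5% of Ctrl in the lines, and ATL2, a RING ubiquitin ligase, kept 26.2% to 40.8%. The touch genes TCH4 and TCH2 were not members. TCH4, a cell wall enzyme, stood at 345 CPM in Ctrl, 369 in GFP-FIE, 152 in amiR-fie-es and 172 in SSTS/AAAA, and TCH2, a calmodulin-like protein, at 59.5, 56.3, 27.1 and 27.3 CPM.

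WRKY70 stood at 32.3, 28.9 and 27.6 CPM in the Ctrl libraries, 9.75, 11.8 and 11.3 CPM in GFP-FIE, 6.69, 6.24 and 5.48 CPM in amiR-fie-es and 11.1, 10.1 and 9.47 CPM in SSTS/AAAA. WRKY70 and CBP60G are factors of salicylic acid defence, and CBP60G stood at 6.09 CPM in Ctrl and 0.959 to 2.802 CPM in the lines. They were the 2 members among 5 salicylic acid genes at that level. ICS1, the synthesis enzyme that CBP60G controls, stood at 18.4 CPM in Ctrl and 19.9 to 21.9 CPM in the lines.

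Clock and light genes gave 3 members. Transcript of RVE1 reached 86.2, 76.3 and 78.2 CPM in the Ctrl libraries, 28.6, 26.96 and 27.98 in GFP-FIE, 26.6, 26.6 and 26.6 in amiR-fie-es and 21.00, 23.7 and 24.03 in SSTS/AAAA. RVE1 is a morning-phased MYB-like factor that ties the clock to auxin, and it was among the 12 members with the highest CPM. For ASG4 the libraries gave 17.7, 17.5 and 16.6 CPM in Ctrl, against 7.33, 7.75 and 7.04 in GFP-FIE, 4.17, 4.89 and 4.34 in amiR-fie-es and 4.43, 3.59 and 3.24 in SSTS/AAAA. ASG4 belongs to the same family. The B-box factor BBX32, which modulates light signalling, stood at 7.52 to 8.99 CPM in Ctrl and 1.87 to 2.86 CPM in the lines. Of 12 clock genes with at least 5 CPM in Ctrl, on a list that was also added after the members had been seen, 2 were members. The core oscillator genes CCA1 and LHY stood at 368 and 296 CPM in Ctrl, at 306 and 251 in GFP-FIE, 301 and 229 in amiR-fie-es, and 267 and 230 in SSTS/AAAA. The evening gene TOC1 stood at 12.8 CPM in Ctrl and 13.4 to 18.8 CPM in the lines. Harvest times are not given in the labels, and their part in these values was not tested.

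The other named members were ACHT4, a chloroplast thioredoxin that kept 41.2% to 47.8% of Ctrl, EGY3, a chloroplast protease-like protein, FMO GS-OX4, an enzyme that oxidises glucosinolates, RTFL16, SUE4, DAA1 and ABCF2. Mean levels of ACHT4 (± SD, n = 3) were 103 ± 1.297 CPM in Ctrl, 49.4 ± 1.61 in GFP-FIE, 42.6 ± 1.28 in amiR-fie-es and 45.6 ± 0.869 in SSTS/AAAA. The lines differed little beside their distance from Ctrl. In Ctrl DAA1 measured 12.7, 14.4 and 13.2 CPM, in GFP-FIE 0.265, 0.358 and 0.207, in amiR-fie-es 0.162, 0.296 and 0.527 and in SSTS/AAAA 0.617, 0.541 and 0.753. DAA1 was at 4.74% of Ctrl or less in every line. Among members with no symbol, AT3G17520 and AT3G02480 stood furthest from Ctrl when measured against the highest line. Levels of AT3G17520 were 55.1, 50.1 and 45.1 CPM in Ctrl, 0.0332, 0 and 0.103 in GFP-FIE, 0.0323, 0.0657 and 0.0293 in amiR-fie-es and 0.323, 0.223 and 0.347 in SSTS/AAAA. AT3G02480 stood at 68.4, 68.6 and 58.3 CPM in the Ctrl libraries, 0.265, 0.391 and 0.724 CPM in GFP-FIE, 0.969, 0.919 and 0.8498 CPM in amiR-fie-es and 1.15, 1.05 and 1.56 CPM in SSTS/AAAA. Each was abundant in every Ctrl library and near the floor in all 9 libraries of the lines. The highest CPM of these 36 was that of AT2G41410, which kept 36.9% to 44.1%. AT3G46600, AT3G24460, AT2G41190 and AT4G27280 were also among the 12 members with the highest CPM, and AT2G41190 had the least left of these, at 7.08% to 10.1% of Ctrl.

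**Figure D3:**
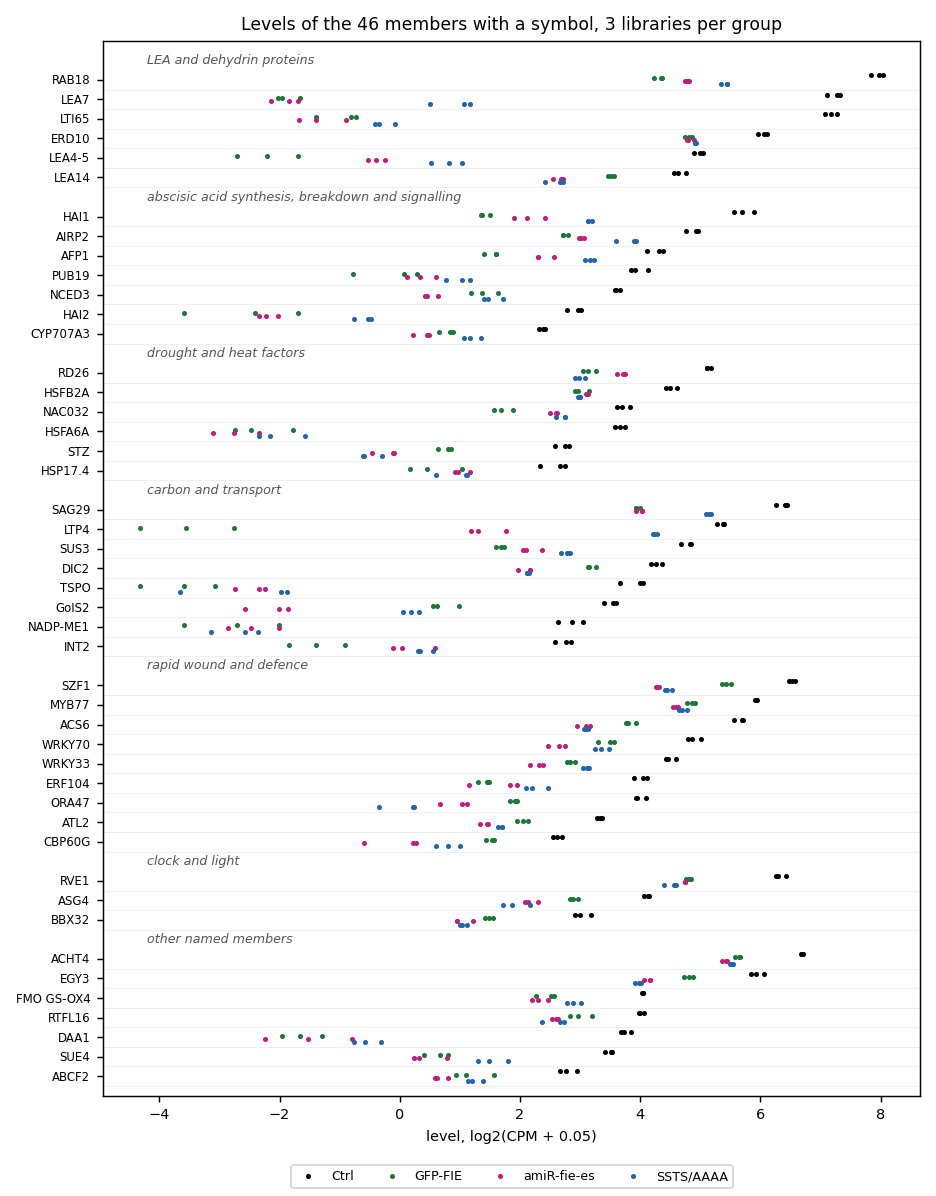
Level of the 46 members with a symbol, as log2(CPM + 0.05) (x axis), by role (rows), with 1 point per library and 3 libraries per group in each colour. Ctrl points lie to the right of every other point in all rows, a gap that the rule selects for. The order of the 3 lines changes from row to row: GFP-FIE is lowest for LTP4 and LEA4-5 and highest for SZF1 and ACS6.

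The rule set no order among the 3 lines, and their differences from each other were tested. It did remove every gene in which any line stood above the ceiling. The shares and medians of all genes given beside the members had no such ceiling. How far the ceiling shaped the splits below was not tested, so those shares are a description and no matched background. The fit used the counts of all 12 libraries and 20046 genes in edgeR, with Benjamini-Hochberg adjusted p under 0.05 as the call. All 82 members entered the fit, 6 of them (NADP-ME1, TSPO, AT3G17520, HSFA6A, AT5G50360 and AT5G63350) only because Ctrl was high. In amiR-fie-es against GFP-FIE, 47 members were lower, 13 higher and 22 not called, while over all genes 28.6% were called lower and 27.9% higher. At least 2-fold lower were 19 members (3.83% of all genes) and at least 2-fold higher 5 (4.36% of all genes). The median log2 fold change was -0.40 over members and 0.01 over all genes.

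In SSTS/AAAA against GFP-FIE, 43 members were lower and 27 higher, with 12 not called, beside 32.3% and 33.3% of all genes. By at least 2-fold, 16 were lower and 15 higher, against 4.74% and 7.65% of all genes. The median log2 fold change was -0.19, and 0.02 over all genes. In SSTS/AAAA against amiR-fie-es, 40 members were higher and 12 lower, with 30 not called, beside 30.9% and 25% of all genes. By at least 2-fold, 16 were higher and 1 lower, against 4.14% and 1.75% of all genes. The median log2 fold change was 0.40, and 0.03 over all genes. Without the 6 members that entered through Ctrl, the higher calls were 23 in place of 27 (11 in place of 15 by at least 2-fold) in SSTS/AAAA against GFP-FIE. They were 37 in place of 40 (14 in place of 16) in SSTS/AAAA against amiR-fie-es, and neither the lower calls nor those of amiR-fie-es against GFP-FIE differed. The 3 comparisons share libraries pairwise, so they are not independent of each other.

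Against both other lines at once, 40 members were called highest in GFP-FIE, 22 highest in SSTS/AAAA and 1, RD26, highest in amiR-fie-es. Of the 22, AT3G17520, AT5G50360 and AT5G63350 entered through Ctrl. The scale matters for these splits. With library totals in place of TMM scaling, an alternative added after the data had been seen, the median of all genes moved up by 0.21 in SSTS/AAAA against GFP-FIE and 0.22 in amiR-fie-es against GFP-FIE on the log2 scale. The higher calls of members were then 34 against 35 lower, in place of 27 against 43, in the first comparison and 18 against 38, in place of 13 against 47, in the second, while over all genes the share of calls that were higher went from 50.7% to 74.5% and from 49.4% to 78.2%. The third comparison had 40 higher and 12 lower under both scalings. Calls whose mean CPM ran the other way were 4 members in the first (AT2G41410, AT3G46600, AT5G47610 and ERD10) and 3 in the second (AT1G73480, ERD10 and SAG29), each smaller than 0.20 on the log2 scale. No other called member ran the other way.

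**Figure D4:**
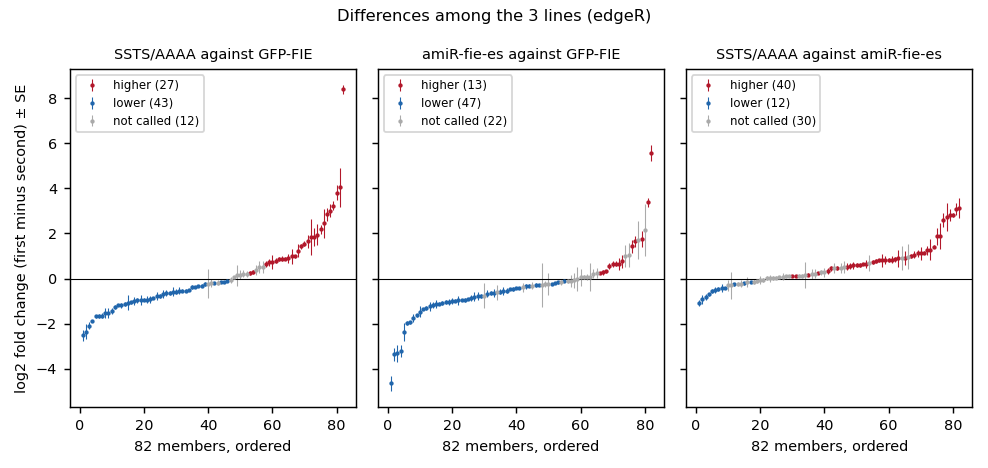
Log2 fold change with its SE (y axis) of the 82 members, ordered within each panel (x axis), for the 3 comparisons among the lines, coloured by the edgeR call. Each SE was taken from the F statistic and can be too narrow where counts are few. Lower calls outnumber higher ones in both comparisons with GFP-FIE (47 against 13 and 43 against 27), and higher calls outnumber lower ones in SSTS/AAAA against amiR-fie-es (40 against 12).

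Calls in these comparisons were also counted by role, in classes drawn up after the members had been seen. Of the 9 rapid wound and defence members, 8 were lower and 0 higher in amiR-fie-es than in GFP-FIE, and 7 were lower and 1, ERF104, higher in SSTS/AAAA than in GFP-FIE. Over all genes 28.6% were lower and 27.9% higher in the first comparison, and 32.3% and 33.3% in the second. The same shares apply to the class and list counts below. SZF1 was lower in amiR-fie-es (log2 fold change -1.36 ± 0.04 SE, edgeR adjusted p = 3.01e-28) and in SSTS/AAAA (log2 fold change -1.19 ± 0.04 SE, edgeR adjusted p = 1.11e-26). ORA47 was lower in SSTS/AAAA by more (log2 fold change -2.10 ± 0.16 SE, edgeR adjusted p = 1.13e-15), and it was also lower there than in amiR-fie-es (log2 fold change -0.93 ± 0.18 SE, edgeR adjusted p = 2.53e-05). All 3 clock and light members, a class drawn up after the members had been seen, were lower than GFP-FIE in both other lines. RVE1 in amiR-fie-es had the smallest step (log2 fold change -0.28 ± 0.05 SE, edgeR adjusted p = 4.33e-06). Its mean CPM there was 26.6 against 27.9 in GFP-FIE. Library totals in place of TMM scaling move the median of all genes in this comparison up by 0.22, so this call depends on the scaling. The touch genes TCH2, TCH3 and TCH4, which are not members, were lower in both lines too, TCH4 by 1.49 ± 0.02 SE on the log2 scale in amiR-fie-es (edgeR adjusted p = 2.24e-40). On the wider list, 9 of 15 measured wound and touch genes were lower and 3 higher in amiR-fie-es, and 10 lower and 3 higher in SSTS/AAAA, with median log2 fold changes of -0.77 and -0.52. On the wider clock list, 7 of 14 measured genes were lower and 4 higher in each of the same comparisons. The medians were -0.12 and -0.23, beside shifts of 0.22 and 0.21 from the choice of scaling.

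Among the lines the ABA members were mostly highest in SSTS/AAAA. All 7 members of this class, drawn up after the members had been seen, were higher in SSTS/AAAA than in amiR-fie-es. Against GFP-FIE 5 were higher and 0 lower. Over all genes 30.9% were higher and 25% lower in SSTS/AAAA than in amiR-fie-es, and 33.3% and 32.3% than in GFP-FIE. On the wider lists, 4 of 8 measured clade A phosphatase genes were higher and 2 lower in SSTS/AAAA than in GFP-FIE. For ABA synthesis, breakdown and transport 6 of 13 were higher and 2 lower. Against amiR-fie-es the same lists had 6 higher and 0 lower, and 9 higher and 3 lower. RD26, classed with the drought factors, was lower in SSTS/AAAA than in both other lines. HAI1 was higher in SSTS/AAAA than in GFP-FIE (log2 fold change 1.55 ± 0.12 SE, edgeR adjusted p = 1.58e-15), and so were HAI2 (log2 fold change 1.86 ± 0.40 SE, edgeR adjusted p = 7.35e-05) and AFP1 (log2 fold change 1.42 ± 0.11 SE, edgeR adjusted p = 7.34e-16). NCED3 was lower in amiR-fie-es than in GFP-FIE (log2 fold change -1.13 ± 0.16 SE, edgeR adjusted p = 6.37e-08) and did not pass between SSTS/AAAA and GFP-FIE (log2 fold change -0.07 ± 0.14 SE, edgeR adjusted p = 0.657). These remained low levels beside Ctrl, since HAI1 in SSTS/AAAA stood at 16.8% of it.

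Within the LEA family the lines also differed. LEA7 was higher in SSTS/AAAA than in amiR-fie-es (log2 fold change 3.08 ± 0.28 SE, edgeR adjusted p = 7.77e-13) and than in GFP-FIE (log2 fold change 2.85 ± 0.29 SE, edgeR adjusted p = 8.99e-12), though at 1.37 to 2.203 CPM it was a small remnant of its Ctrl level. LEA4-5 was higher than in GFP-FIE in amiR-fie-es (log2 fold change 1.76 ± 0.34 SE, edgeR adjusted p = 2.64e-05) and in SSTS/AAAA (log2 fold change 3.01 ± 0.28 SE, edgeR adjusted p = 7.79e-13). LEA14 was lower in both, in amiR-fie-es (log2 fold change -1.09 ± 0.08 SE, edgeR adjusted p = 1.63e-15) and in SSTS/AAAA (log2 fold change -1.13 ± 0.08 SE, edgeR adjusted p = 2.50e-16). On the wider LEA, dehydrin and cold list, 14 of 21 measured genes were higher and 1 lower in SSTS/AAAA than in amiR-fie-es, with a median log2 fold change of 0.92. Against GFP-FIE the same list had 11 higher and 7 lower in SSTS/AAAA (median 0.30) and 6 higher and 9 lower in amiR-fie-es (median -0.23). The shares of all genes called higher and lower in these 3 comparisons were 30.9% and 25%, 33.3% and 32.3%, and 27.9% and 28.6%.

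LTP4 was higher than in GFP-FIE in SSTS/AAAA (log2 fold change 8.39 ± 0.21 SE, edgeR adjusted p = 4.25e-33) and in amiR-fie-es (log2 fold change 5.59 ± 0.35 SE, edgeR adjusted p = 5.17e-18). GFP-FIE held 4 LTP4 counts over the 3 libraries, so these SEs, taken from the F statistic, understate the counting error. LTP4 was also higher in SSTS/AAAA than in amiR-fie-es (log2 fold change 2.81 ± 0.09 SE, edgeR adjusted p = 6.86e-28). LTP3 was higher in the same 3 comparisons, by 5.09 ± 0.11, 3.15 ± 0.14 and 1.93 ± 0.06 SE on the log2 scale. AT5G15500 was higher than in GFP-FIE in amiR-fie-es (log2 fold change 3.38 ± 0.21 SE, edgeR adjusted p = 2.63e-18) and in SSTS/AAAA (log2 fold change 3.24 ± 0.21 SE, edgeR adjusted p = 1.34e-17). AT5G01300 was higher in SSTS/AAAA (log2 fold change 3.81 ± 0.33 SE, edgeR adjusted p = 9.86e-14) but did not pass in amiR-fie-es (log2 fold change 1.00 ± 0.51 SE, edgeR adjusted p = 0.09099). AT3G13672 was higher in amiR-fie-es by a smaller step (log2 fold change 1.65 ± 0.23 SE, edgeR adjusted p = 5.25e-08).

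Other members were lower. GolS2 was lower in amiR-fie-es than in GFP-FIE (log2 fold change -3.37 ± 0.28 SE, edgeR adjusted p = 4.81e-14), and AT3G27250 was lower still (log2 fold change -4.65 ± 0.35 SE, edgeR adjusted p = 1.16e-15). AT1G66090 and AT2G37870 were lower than in GFP-FIE in both lines, AT1G66090 in SSTS/AAAA at log2 fold change -2.53 ± 0.23 SE, edgeR adjusted p = 2.99e-13 and in amiR-fie-es at log2 fold change -3.22 ± 0.25 SE, edgeR adjusted p = 8.13e-15. AT2G37870 was lower at log2 fold change -2.35 ± 0.33 SE, edgeR adjusted p = 5.05e-08 and log2 fold change -3.32 ± 0.39 SE, edgeR adjusted p = 9.22e-10 in the same order. AT3G24460 was lower in SSTS/AAAA (log2 fold change -1.89 ± 0.06 SE, edgeR adjusted p = 3.76e-29). Between SSTS/AAAA and amiR-fie-es, AT3G27250 was higher in SSTS/AAAA (log2 fold change 3.13 ± 0.43 SE, edgeR adjusted p = 3.91e-08). AT3G05640 was the 1 member lower by at least 2-fold there (log2 fold change -1.10 ± 0.13 SE, edgeR adjusted p = 9.21e-10), followed by AT3G18950 (log2 fold change -0.84 ± 0.13 SE, edgeR adjusted p = 6.13e-07) and RD26 (log2 fold change -0.70 ± 0.07 SE, edgeR adjusted p = 1.29e-11).

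H3K27me3 was a readout that the rule had not used. A gene was counted as marked in a library where peaks covered at least 200 bp of it, and in a group where all 3 libraries agreed. In 2-week Ctrl shoots 22 of the 82 members were marked (26.8%), although every member was expressed there. Of all 26712 nuclear protein-coding genes 18% were marked, and of those with at least 5 CPM in Ctrl 5.31%. RNA and chromatin came from bulk tissue, so whether mark and transcript lay in the same cells cannot be told apart. Peak lists hold no read counts, and read depth is unknown from them.

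The marked members included the dehydrin RAB18, LEA7, LTI65, the phosphatases HAI1 and HAI2, GolS2, SUS3, SAG29, HSFA6A, TSPO, LTP4, CBP60G and FMO GS-OX4, and 9 members with no symbol. By role they were 3 of 6 LEA members, 5 of 8 carbon and transport members, 2 of 7 ABA members, 1 of 9 wound and defence members and 0 of 3 clock and light members. As a description of values the rule had used, the median level left in the marked members was 7.83% of Ctrl in GFP-FIE, 6.03% in amiR-fie-es and 12.3% in SSTS/AAAA, against 31.7%, 23.4% and 25% for the other 60 members.

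Losses of the mark, from 3 of 3 Ctrl libraries to 0 of 3, were counted beside those over all marked genes. In GFP-FIE it was lost from 1 of the 22, TSPO (2.45% of all 4815 marked genes lost it). There 20 were still marked in 3 of 3 libraries, 24.4% of the 82 members beside 16.1% of all genes. These shares of marked genes are not shares of the genes marked in Ctrl. In SSTS/AAAA it was lost from 5 of 22 (25.9% of all marked genes), namely AT1G66090, GolS2, AT5G15500, TSPO and SUS3. Still marked were 11, 13.4% of the 82 members beside 8.99% of all genes. Without replicate 3 of each group the losses were 9 in SSTS/AAAA and 2 in GFP-FIE. In amiR-fie-es it was lost from 11 of 22 (56.8% of all marked genes). Still marked were 8, 9.76% of the 82 members beside 3.55% of all genes. No member gained the mark in GFP-FIE (0.0337% of all genes gained it), SSTS/AAAA (0.0337%) or amiR-fie-es (0.0262%). Low transcript levels in the lines stood beside a kept mark in some members and an absent mark in others. In amiR-fie-es the 8 members marked in 3 of 3 libraries kept a median of 3.75% of Ctrl RNA, and the 11 without the mark kept 5.54%, from 0.248% for LTI65 to 30.3% for FMO GS-OX4.

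H3K27me3 peaks over LTI65 covered 1610, 1696 and 1486 bp in Ctrl, 1077, 1430 and 1591 bp in GFP-FIE, 0 bp in every library of amiR-fie-es and 0, 0 and 210 bp in SSTS/AAAA. LTI65 thus had no peak in amiR-fie-es and a short one in 1 SSTS/AAAA library, with less than 1 CPM of transcript in each. H3K27me3 peaks over HAI1 covered 1021, 867 and 1212 bp in Ctrl, 1278, 923 and 928 bp in GFP-FIE, 0 bp in every library of amiR-fie-es and 577, 382 and 292 bp in SSTS/AAAA. HAI1 lost the mark in amiR-fie-es and kept a shortened one in SSTS/AAAA. H3K27me3 peaks over GolS2 covered 1119, 959 and 777 bp in Ctrl, 309, 417 and 382 bp in GFP-FIE, 0 bp in every library of amiR-fie-es and 0 bp in every library of SSTS/AAAA. GolS2 had 309 to 417 bp left in GFP-FIE, less than in any Ctrl library.

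H3K27me3 peaks over RAB18 covered 959, 1027 and 1005 bp in Ctrl, 970, 1033 and 995 bp in GFP-FIE, 938, 861 and 773 bp in amiR-fie-es and 804, 897 and 921 bp in SSTS/AAAA. RAB18 was covered over most of its length in all 12 libraries, from its highest transcript level in Ctrl to its lowest in GFP-FIE. H3K27me3 peaks over SAG29 covered 1729, 2038 and 1841 bp in Ctrl, 1521, 2163 and 1951 bp in GFP-FIE, 315, 0 and 491 bp in amiR-fie-es and 634, 893 and 677 bp in SSTS/AAAA. SAG29 had the longest covered stretch among members in Ctrl and at most 893 bp in each library of amiR-fie-es and SSTS/AAAA. H3K27me3 peaks over TSPO covered 451, 447 and 565 bp in Ctrl, 0 bp in every library of GFP-FIE, 0 bp in every library of amiR-fie-es and 0 bp in every library of SSTS/AAAA. TSPO was the 1 marked member without a peak in all 3 lines. Of the other members with long marks, HAI2, AT2G15020, AT3G27250 and AT5G50360 stayed marked in all 4 genotypes, and AT1G66090 lost the mark in amiR-fie-es and SSTS/AAAA.

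**Figure D5:**
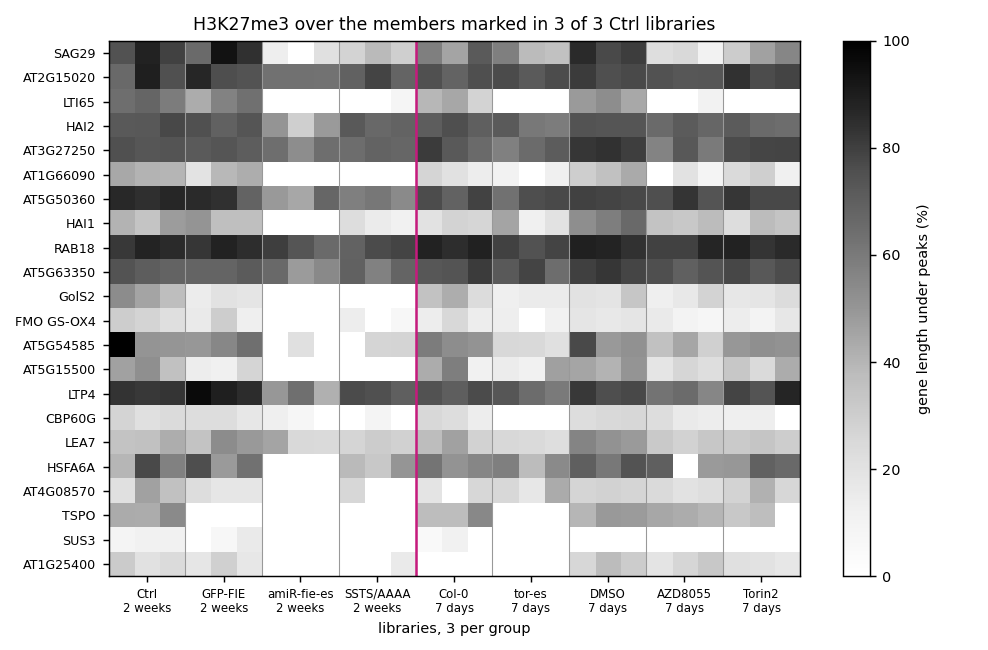
Share of gene length under H3K27me3 peaks (grey scale, percent) for the 22 members marked in 3 of 3 Ctrl libraries (rows) in 27 libraries (columns, 3 per group, 2-week shoots left of the coloured line and 7-day seedlings right of it). RAB18, AT5G50360 and LTP4 are dark in every group, LTI65 and GolS2 are blank in amiR-fie-es, and LTI65 is blank in tor-es and Torin2 as well.

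Covered lengths were compared as well. Over the 22 members the median ratio of covered bases to Ctrl was 0.892 in GFP-FIE, 0.331 in SSTS/AAAA and 0.0532 in amiR-fie-es, and over all 4815 marked genes it was 0.933, 0.357 and 0.0. Such lengths move with how much was called in a library, and the amiR-fie-es lists held 1847 to 1945 peaks against 8311 to 8909 in Ctrl.

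In 7-day seedlings the mark lay over 20 members in Col-0 (14.7% of all genes were marked) and 15 in tor-es (11%). It was lost in tor-es from 3 of 20 members, LTI65, TSPO and CBP60G (7% of all marked genes), and gained by none (0.0337% of all genes). DMSO seedlings had 27 marked members (26.9% of all genes), AZD8055 24 (26.5%) and Torin2 18 (22.7%). Under AZD8055 1 of 27 members, WRKY70, lost the mark (4.67% of all marked genes) and AT3G13672 gained it (1.62% of all genes). Under Torin2 5 of 27, LTI65, WRKY70, ERD10, AT3G53980 and AT2G41410, lost it (3.49% of all marked genes) and none gained it (0.0262% of all genes). The DMSO lists held 12908 to 13304 peaks and those of Col-0 6884 to 7113, so counts are not compared across these 2 sets. Both inhibitor groups share the DMSO libraries, and the difference between them was not tested. In 7-day seedlings the peaks over LTI65 covered 983, 1112 and 687 bp in Col-0, 0 bp in every library of tor-es, 1224, 1331 and 1104 bp in DMSO, 0, 0 and 263 bp in AZD8055 and 0 bp in every library of Torin2. LTI65 was therefore marked in every Ctrl, Col-0 and DMSO library and in none of tor-es and Torin2. In 7-day seedlings the peaks over RAB18 covered 1031, 993 and 1037 bp in Col-0, 929, 877 and 924 bp in tor-es, 1042, 1028 and 979 bp in DMSO, 931, 929 and 1022 bp in AZD8055 and 1030, 974 and 1006 bp in Torin2. RAB18 stayed covered under TOR depletion and under both inhibitors. The members' RNA in 7-day seedlings was not analysed here. H3K9me2, a mark of silent repeats, covered 0 members in Col-0 and 0 in tor-es (0.0749% of all genes in each), and none gained it in tor-es (0.00749% of all genes).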

How the data were processed

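RNA-seq was made from 4 genotypes with 3 libraries each, and ChIP from 9 groups of 3. Per the submitters' processing notes the tools were FastQC 0.11.5, Trimmomatic 0.36, HISAT2 2.1.0, Subread 1.5.3 (featureCounts), BWA 0.7.15-r1142, SAMtools 1.6 and MACS2. The genome build and the strand setting are not given in the sources used here. The deposited table held raw gene counts, with columns named NST taken as SSTS/AAAA because the peak lists of that line carry the same name. The deposited peak lists held a score, a fold enrichment and a −log10 q for each peak, as the authors' peak caller gave them, called per library, with a lowest −log10 q of 1.307. Of these only peak positions and the −log10 q entered a count. The FPKM table held the same counts over length and total and was not used.

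CPM were computed from each library's total of 28866845 to 34543091 counts. Lines were compared with the quasi-likelihood test of edgeR 4.0.16 (R 4.3.3) on 20046 genes with TMM scaling, all 12 libraries sharing 1 spread estimate, and Benjamini-Hochberg adjustment over all genes. Each SE is the size of the log2 fold change divided by the square root of the F statistic. It is not a separate estimate, and where counts are few it can be narrower than the counting error. The script was tested on simulated data. Each exact interval covers counting error only and takes no account of the selection by the rule. Gene positions and symbols came from the RefSeq table, which matched 31912 IDs. Tables used Python 3.11.15 and pandas 2.3.3.

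The members, gene lists and tests were chosen with earlier results of these data known. The clock list, the wound and touch list and the role classes were added after the members had been seen. The rule for named members took the 12 highest in Ctrl, the 12 furthest from Ctrl, the members in a list, 3 on each side of the ceiling, the 4 largest calls each way per comparison, and up to 8 marked members by covered length. The other members with a symbol were named by role after their values were seen. Same-numbered libraries of different genotypes did not deviate together (r from -0.04 to 0.05 over 18 pairs), so numbers were not taken as pairs. Alternatives were DESeq2 1.42.0, other scalings, filters and thresholds, left-out replicates and a replicate block. Promoter motifs were not searched, as no sequence was used here.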

Additional observations from a re-analysis of the deposited data

How the results depend on the processing

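Of 440 alternative values 425 kept their direction and side of the threshold, or stayed within 1.5 times for a count. These included all 287 values of single genes. The single genes were those with the largest calls each way per comparison, so small calls such as RVE1 and ERD10 were not covered. A count within 1.5 times can still change a split. With library totals the share of member calls that were higher in SSTS/AAAA against GFP-FIE went from 38.57% to 49.28%. The member count was 28 with a ceiling of 25% of Ctrl and 150 with a floor of 1 CPM. With at least 50% of the gene under peaks the marked members were 10 in Ctrl, 9 in Col-0, 7 in tor-es, 10 in DMSO, 7 in AZD8055 and 7 in Torin2, and the losses 3 in amiR-fie-es, 0 in GFP-FIE and 3 in SSTS/AAAA. A −log10 q of at least 5 left 0 losses in GFP-FIE and 8 marked members in tor-es; the cause was not tested. Leaving out the same replicate number from every ChIP group gave 1 to 2 losses in GFP-FIE and 6 to 9 in SSTS/AAAA. Leaving out 1 RNA library at a time gave 80 to 86 members. It gave 23 to 28 higher and 41 to 44 lower members in SSTS/AAAA against GFP-FIE, 11 to 13 and 44 to 49 in amiR-fie-es against GFP-FIE, and 35 to 46 and 10 to 13 in SSTS/AAAA against amiR-fie-es. The fit with library totals was added after the data had been seen.

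With the replicate number as a block, 27 members were higher and 43 lower in SSTS/AAAA against GFP-FIE, 13 and 47 in amiR-fie-es against GFP-FIE, and 41 and 12 in SSTS/AAAA against amiR-fie-es. The promoter motif alternatives were not run. The RNA depth limits members near 0 CPM, where a few counts set the fold, and peak lists give no depth.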
